A study of Homo sapiens with 5 samples.

Results

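The control oligo arm of a transfection experiment in A549 cells was compared between its 16 h library and its 9 h library, gene by gene, in exons and in introns. Genes were taken at a mean of 50 or more counts over these 2 libraries. That gave 7084 of 23340 genes in the exon table and 4496 of 22009 in the intron table, with 3697 genes in both. A549 is a human lung carcinoma epithelial line. Each side received 50 nM control oligo with Lipofectamine, a cationic lipid carrier, and was lysed 9 h or 16 h later. The series also holds a Lipofectamine mock library at 16 h and libraries given 50 nM of a 23N randomer oligo for 9 h or 16 h. It concerns double-stranded RNA from repeats and the interferon system. Ribosomal RNA was depleted from total RNA before sequencing. What the oligos are made of, and whether they are single-stranded, is not stated in the labels.

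Every group is 1 library, so no difference carries a replicate check and no p-value is given. Differences are stated as log2 ratios of 16 h over 9 h with a 95% counting interval, which covers counting error only. A mock library at 9 h was not analysed here, so time in culture and time after the oligo cannot be told apart. Nothing in the labels says whether the libraries came from separate cultures.

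Metallothioneins bind zinc and copper, heme oxygenase degrades heme, and the chaperone BiP folds proteins in the endoplasmic reticulum. Cells in culture consume glucose and growth factors and run a circadian clock, in which PER and REV-ERB proteins repress the activators that drive their own genes. Exon reads follow mature RNA and intron reads follow mainly unspliced RNA.

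4 promoter windows are printed for genes described below: both metallothioneins that were lower at 16 h, the clock gene PER1 that was higher and the replication factor GINS2 that was lower. Each is 300 bases, from 250 before to 50 after the gene's start, read 5′ to 3′ on the gene's strand from RefSeq on GRCh38.p14. Capitals mark the metal response element core TGCNCNC in the metallothioneins, the E-box CACGTG in PER1 and the E2F core TTTCCCGC in GINS2, each on either strand. The windows are MT2A at chr16:56608334-56608633 on the plus strand, MT1X at chr16:56682220-56682519 on the plus strand, PER1 at chr17:8152355-8152654 on the minus strand and GINS2 at chr16:85688905-85689204 on the minus strand.
MT2A: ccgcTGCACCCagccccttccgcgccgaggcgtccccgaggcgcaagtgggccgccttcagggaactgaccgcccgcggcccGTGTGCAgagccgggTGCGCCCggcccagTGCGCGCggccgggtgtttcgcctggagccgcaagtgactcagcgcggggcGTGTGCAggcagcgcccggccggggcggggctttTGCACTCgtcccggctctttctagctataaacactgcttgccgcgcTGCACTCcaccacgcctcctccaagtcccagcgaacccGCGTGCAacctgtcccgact
MT1X: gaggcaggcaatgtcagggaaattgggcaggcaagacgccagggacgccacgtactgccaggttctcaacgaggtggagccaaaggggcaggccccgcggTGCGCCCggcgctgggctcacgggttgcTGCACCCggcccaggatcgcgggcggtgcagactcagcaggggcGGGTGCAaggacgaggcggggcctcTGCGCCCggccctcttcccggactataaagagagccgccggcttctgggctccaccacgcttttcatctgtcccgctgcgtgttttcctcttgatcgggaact
PER1: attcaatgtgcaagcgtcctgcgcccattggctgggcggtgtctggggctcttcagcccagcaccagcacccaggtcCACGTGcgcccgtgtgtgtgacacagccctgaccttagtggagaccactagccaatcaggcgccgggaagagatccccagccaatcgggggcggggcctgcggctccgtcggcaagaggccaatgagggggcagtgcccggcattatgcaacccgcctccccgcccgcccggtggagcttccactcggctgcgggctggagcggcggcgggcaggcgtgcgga
GINS2: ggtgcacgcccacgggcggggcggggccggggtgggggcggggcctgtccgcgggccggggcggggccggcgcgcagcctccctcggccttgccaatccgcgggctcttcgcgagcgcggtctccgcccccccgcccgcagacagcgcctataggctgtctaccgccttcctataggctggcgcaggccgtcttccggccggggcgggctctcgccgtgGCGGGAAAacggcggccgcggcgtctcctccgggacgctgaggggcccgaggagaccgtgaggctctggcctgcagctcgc

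The MT2A window held 8 matches to the metal response element core and the MT1X window held 4. At least 1 match stood in 55.2% of all 27305 promoter windows, at least 4 in 2.78% and at least 8 in 0.0879%. The single E-box of PER1, at position -173, overlaps a match to the metal core. An E-box stood in 7.43% of all windows and in 11.2% of those of exon genes at the minimum. PER1 held no match to the cyclic AMP response element TGACGTCA. The E2F core of GINS2 lies at position -31. This core stood in 1.66% of all windows and in 2.96% of those of exon genes at the minimum. The metal core was searched after the values were seen. A match is a run of letters, not evidence of binding.

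The 2 libraries were close in depth, with 2629053 exon counts at 9 h and 2596995 at 16 h, and 740408 and 773339 intron counts. RN45S, the ribosomal RNA precursor, took 6.78% and 7.24% of exon counts, against 11.5% in mock. 9 markers of A549 and lung epithelium summed to 5440 and 5330 CPM (exon counts scaled to 1000000 per library), led by ALDH1A1, KRT18 and KRT8, while KRT19 and EPCAM were at 0 in both libraries. The 4 endothelial markers and the red cell marker HBB were at 0 in both, 8 leukocyte markers summed to 4.56 and 13.1 CPM, and 7 fibroblast markers to 196 and 119 CPM, nearly all COL1A1. In bulk RNA, fewer cells of a type and less RNA per cell cannot be told apart.

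In exons, 325 genes (4.59% of 7084) were at least 2-fold higher at 16 h and 297 (4.19%) at least 2-fold lower, around a median log2 ratio near 0. Such a share is not particular to this comparison. Against mock, the same 16 h library was 2-fold higher for 457 genes (6.95% of 6574) and 2-fold lower for 184 (2.8%). Randomer at 16 h over 9 h gave 242 higher (4.02% of 6026) and 445 lower (7.38%). The randomer ratios were shifted low as a whole, with a median of -0.19 and 37.2% above 0 over the 5593 genes at the minimum in both pairs. Genes with higher counts passed 2-fold less often. Among genes with a mean of 50 to 100 counts 18.7% did, among those at 100 to 200 counts 8.35%, and among those at 200 to 500 counts 2.17%. The scaled median absolute deviation of the log2 ratios was 0.739 at 50 to 100 counts and 0.245 at 1000 or more, where counting error alone gives 0.248 and 0.0529. The counting intervals below are therefore narrower than the spread seen between these libraries. Of 973 genes with a mean of 500 or more counts, only SLC2A3 was 2-fold higher (0.103%) and only KRT80 and COL7A1 were 2-fold lower (0.206%). Mock lay between the control libraries for 222 of the 325 higher and 207 of the 297 lower genes, and nearer the 16 h library for 156 and 157 of them. Counts of mock below are read against these shares.

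**Figure D1:**
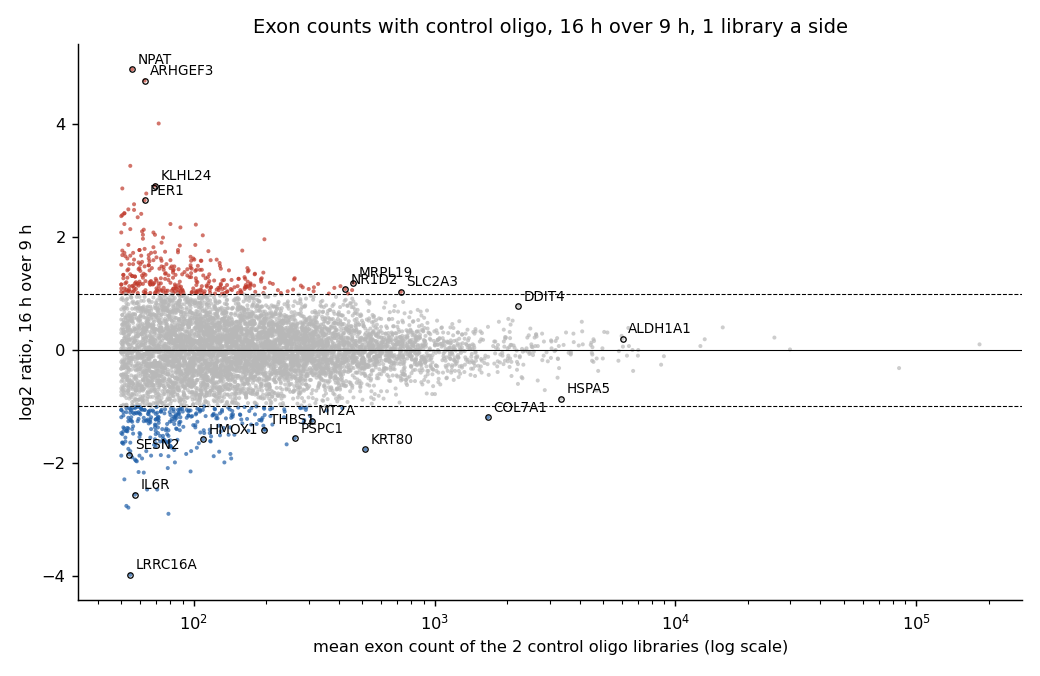
Exon log2 ratio of control oligo at 16 h over 9 h (y) against the mean exon count of both libraries (x, log scale) for 7084 genes, 1 library a side. Red points are 2-fold higher and blue points 2-fold lower at 16 h, dashed lines mark 2-fold, and open circles mark named genes. The cloud narrows as counts rise, and SLC2A3, KRT80 and COL7A1 are the genes past 2-fold at a mean of 500 or more.

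**Figure D2:**
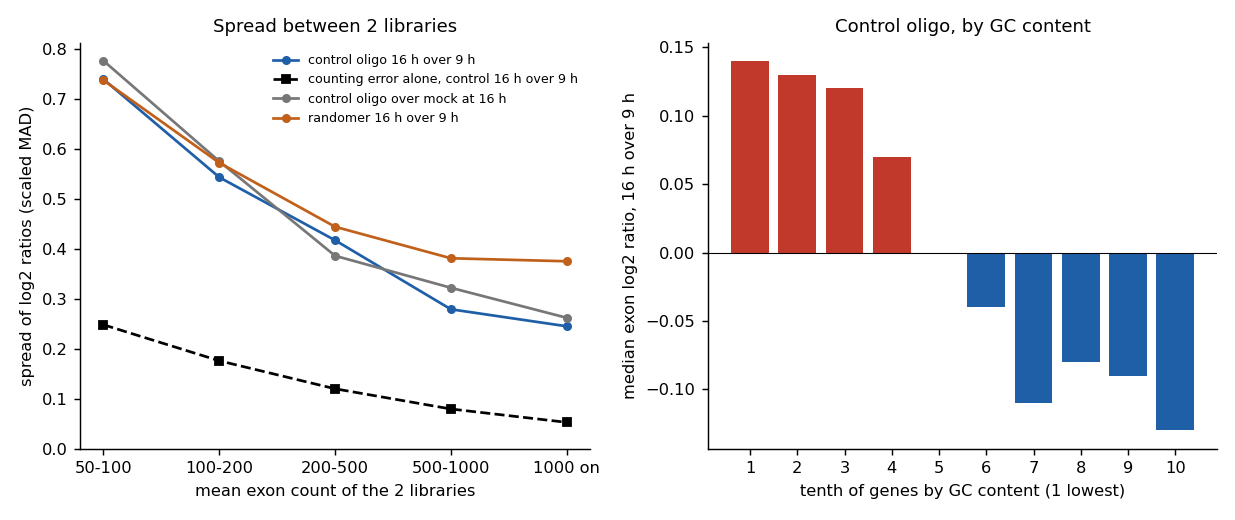
Left, scaled median absolute deviation (MAD) of exon log2 ratios by mean count for 3 pairs of libraries, with the value from counting error alone for control oligo as a dashed line. Right, median exon log2 ratio of control oligo at 16 h over 9 h for 10 equal groups of genes ordered by GC content. The spread at 50 to 100 counts is 0.739 against 0.248 from counting alone, and the median runs from 0.14 in the group of lowest GC content to -0.13 in the highest.

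The ratios also moved with base composition. The median log2 ratio was 0.14 in the 10% of genes with the lowest GC content (30.2% to 38%) and -0.13 in the 10% with the highest (60.3% to 72.7%). The low-GC genes held 58 genes 2-fold higher and 18 lower, and the high-GC genes 21 and 54. Over 7008 genes with a GC value, Spearman's rho was -0.19, a description across genes of 1 pair of libraries. The direction is not particular to this pair: rho was -0.13 for control oligo over mock at 16 h and -0.1 for randomer at 16 h over 9 h. The part of GC content in the results below was not tested. Centring on GC, an alternative chosen after seeing the data, moved the median of a gene list by at most 0.285, and the centred median is given for some lists.

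Among well-counted genes, a glucose transporter stood out on the higher side and a keratin and an anchoring collagen on the lower side. SLC2A3, which encodes the glucose transporter GLUT3, had 479 exon counts at 9 h and 969 at 16 h, a log2 ratio of 1.03 (0.87 to 1.20). Its introns went from 36 to 151 counts, a log2 ratio of 2.07 (1.55 to 2.65). So both readouts of this gene were higher at 16 h. In CPM its exons stood at 182 and 373, with 487 in mock. Reads of SLC2A3 may be shared with its near copy SLC2A14, so its level is uncertain.

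KRT80, an epithelial keratin, had 800 exon counts at 9 h and 233 at 16 h, a log2 ratio of -1.76 (-1.98 to -1.55). Its introns went from 289 to 63 counts, a log2 ratio of -2.17 (-2.60 to -1.78). COL7A1, the collagen of anchoring fibrils beneath epithelia, had 2327 exon counts at 9 h and 1008 at 16 h, a log2 ratio of -1.19 (-1.30 to -1.08). Exons and introns of both genes were lower at 16 h, with COL7A1 introns at 1253 and 589 counts. Mock at 16 h lay between the control libraries for both genes, at 135 CPM for KRT80 and 678 CPM for COL7A1. With randomer KRT80 was also lower at 16 h (log2 ratio -0.72), whereas COL7A1 was 1520 CPM at 9 h and 1670 CPM at 16 h.

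Other well-counted genes stayed inside 2-fold. On the higher side were DPH5, a diphthamide synthesis enzyme (log2 ratio 0.87), UBASH3B, a tyrosine phosphatase (0.85), the trafficking gene TMED5 (0.85), the zinc importer SLC39A10 (0.84), CCDC88A, an actin-linked signalling protein (0.82), the splicing factor PNN (0.78), SSFA2 (0.75) and HTATIP2 (0.71). DDIT4, which restrains mTORC1, had 1657 counts at 9 h and 2802 at 16 h (0.78). On the lower side were the transcription factor MGA (-0.95), the caveolar coat gene PTRF (-0.93), IL6ST, the signalling chain of the interleukin-6 receptor (-0.87), the transglutaminase TGM2 (-0.86), the RNA decay gene SMG5 (-0.84) and RRM2, a ribonucleotide reductase subunit (-0.81). HSPA5, which encodes BiP, had 4344 counts at 9 h and 2364 at 16 h, a log2 ratio of -0.86 (-0.93 to -0.79), and its introns had 160 and 73. TGM2 introns were also lower, from 143 to 42 counts. Mock lay nearer the 16 h than the 9 h control library in 9 of the 10 lowest of these well-counted genes and in 7 of the 10 highest. In the 10 lowest exon ratios and the 10 lowest intron ratios over all genes at the minimum, it lay nearer the 9 h library in 6 and in 8. In the 10 highest exon and the 10 highest intron ratios it lay nearer the 16 h library in 9 and in 8.

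At a mean of 200 or more counts, 21 of 2818 genes were 2-fold higher (0.745%) and 22 were 2-fold lower (0.781%). The higher genes ran from SUZ12, a Polycomb subunit (293 and 581 counts, log2 ratio 1.0), to TMEM203 (155 and 370, 1.27). They included the REV-ERB gene NR1D2, the mitochondrial ribosomal protein gene MRPL19, the mitotic kinase PBK, the ubiquitin ligase gene G2E3, the actin nucleation gene WASL, the transcription factor YY1, the scramblase ANO6, the BMP regulator TWSG1 and the zinc finger gene ZNF507. The lower genes included, after KRT80, SNX8, a sorting nexin (371 and 115 counts, log2 ratio -1.67), PSPC1, a paraspeckle protein (394 and 132, -1.56), SKP2, the F-box protein that marks p27 for destruction (407 and 164, -1.29), TRAF3, a signalling adaptor (423 and 186, -1.17), the Mediator subunit MED24 (331 and 143, -1.19) and the m6A reader YTHDF1 (285 and 138, -1.03). These genes were singled out after their values were seen. The median GC content was 40.3% for the higher genes and 54.2% for the lower ones, against 46.7% over all genes, and after centring on GC 12 of 21 and 13 of 22 remained past 2-fold.

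The introns of these 43 genes gave a second view that the choice did not use, though from the same libraries, so it is not an independent check. Of the 21 higher genes, 9 had a mean of 50 or more intron counts, 6 of them with a ratio above 0 and 2 past 2-fold. Of the 22 lower genes, 13 had such introns, 8 of them below 0 and 4 past 2-fold: KRT80, COL7A1, MED24 and TRAF3. Among all 3697 genes counted in both tables, 55.5% had an intron ratio above 0, 7.41% were 2-fold higher in introns and 5.65% 2-fold lower. TRAF3 introns had 267 counts at 9 h and 88 at 16 h. PSPC1 went the other way, with 161 and 240 intron counts. So did SKP2, with 22 and 68 intron counts, a mean below the minimum of 50. Mock lay between the control libraries for 15 of 21 higher and 21 of 22 lower genes, beside 222 of 325 and 207 of 297 at the minimum of 50.

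**Figure D3:**
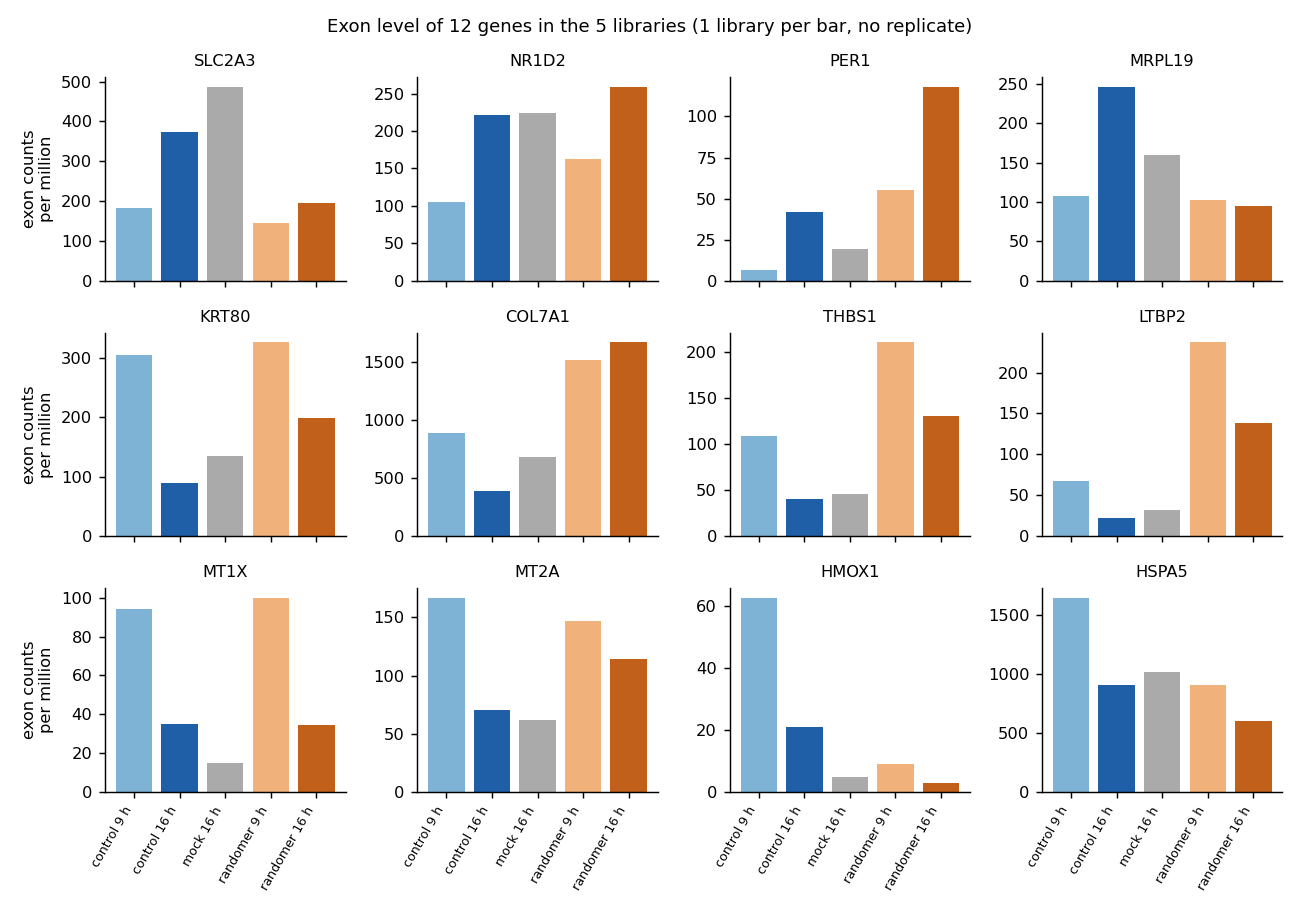
Exon CPM (y) of 12 genes in the 5 libraries (x), 1 library per bar and no replicate. From 9 h to 16 h with control oligo, SLC2A3, NR1D2, PER1 and MRPL19 are higher and the other 8 genes lower. Mock lies between the control libraries for PER1, MRPL19, KRT80, COL7A1, THBS1, LTBP2 and HSPA5.

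The largest ratios came from genes just above 50 counts. NPAT, a coactivator of histone genes, had 3 exon counts at 9 h and 108 at 16 h, a log2 ratio of 4.97 (3.60 to 7.49). ARHGEF3, a guanine nucleotide exchange factor, had 4 and 121 (4.77), and SPTSSA, a small subunit of serine palmitoyltransferase, had 8 and 135 (4.01). The mock level lay between the control libraries for each of the 10 highest, which were chosen as the extremes of the control pair, beside 222 of all 325 higher genes. The others were the deubiquitinase STAMBPL1 (3.26), KLHL24 (2.91), the membrane protein EMB (2.86), the galectin LGALS8 (2.77), PER1 (2.65), the repressor HBP1 (2.58) and the H/ACA RNA SNORA71C (2.49). The introns of SPTSSA and STAMBPL1 did not follow, at 106 and 67 counts for SPTSSA and 114 and 76 for STAMBPL1.

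On the lower side, LRRC16A, which regulates actin capping, had 103 exon counts at 9 h and 6 at 16 h, a log2 ratio of -3.98 (-5.56 to -2.91). IL6R, the ligand-binding chain of the interleukin-6 receptor, had 98 and 16 (-2.56), and its introns 51 and 6. Both chains of that receptor, IL6R and IL6ST, were thus lower at 16 h in exons, whereas IL6ST introns had 13 and 28 counts. The other 8 were BEND3 (-2.90), B4GALNT4 (-2.79), C10orf114 (-2.76), the GTPase RALA (-2.47), the Wnt regulator FAM123B (-2.47), the corepressor RCOR3 (-2.29), TMEM184A (-2.17) and BAMBI, a TGF-beta pseudoreceptor (-2.16). Mock lay between the control libraries for 9 of the 10, beside 207 of all 297 lower genes. With randomer IL6R exons were also lower at 16 h, from 75.9 to 31.2 CPM. Its introns went the other way with randomer, at 123 and 218 counts (log2 ratio 1.1). The median intron ratio with randomer was 0.3 over genes at the minimum in both pairs.

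Gene lists are described by the number of members at a mean of 50 or more, how many were past 2-fold and the median log2 ratio, beside 4.59% higher, 4.19% lower and a median near 0 over all genes. TGF-beta and SMAD targets lay low: of 12, 3 were 2-fold lower and none higher, 8 were below 0, and the median was -0.53 (-0.54 after centring on GC). THBS1, which encodes the matrix protein thrombospondin 1, had 286 counts at 9 h and 106 at 16 h (log2 ratio -1.41). LTBP2, a binding protein of the extracellular matrix, had 178 and 57 (-1.62), with 90 and 37 in introns, and the inhibitory SMAD7 had 396 and 188 (-1.06). PMEPA1, a feedback inhibitor of the pathway, had 2688 and 1749 (-0.60). The ID genes did not share this: ID2 had 102 and 163 counts and ID3 868 and 959. Intron ratios of 7 members had a median of -0.45. In the randomer libraries, 11 members had a median of -0.69 with none past 2-fold, beside -0.19 over all genes counted in both pairs.

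Of 25 extracellular matrix and adhesion genes, 2 were 2-fold lower, THBS1 among them, and none higher (median -0.11). All 4 keratin genes were below 0 in exons, with KRT81 at 403 and 255 counts, KRT18 at 5415 and 4141 and KRT8 at 2480 and 2397. Only KRT80 among them was past 2-fold. The YAP target ANKRD1 was 2-fold lower (78 and 29 counts, -1.39) in a list of 10 with a median of 0.09.

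The metal list of 6 genes had a median of -0.57, with 2 lower and none higher. MT2A had 440 exon counts at 9 h and 182 at 16 h, a log2 ratio of -1.25 (-1.51 to -1.0). MT1X had 247 and 90, a log2 ratio of -1.43 (-1.80 to -1.09). Both metallothioneins, whose promoters are printed above, were thus lower at 16 h in exons. In mock they stood at 61.8 CPM for MT2A and 14.8 CPM for MT1X, below both control libraries. Their introns were far below the count minimum and moved apart, at 20 and 0 counts for MT2A and 1 and 12 for MT1X. The zinc exporter SLC30A1 had 219 and 131 counts (-0.72), and the importer SLC39A10 was higher, as given above, both inside 2-fold. A response to zinc was not tested. Metallothionein copies are near-identical, so reads may be split between them.

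HMOX1, heme oxygenase 1, was lower as well. It had 165 exon counts at 9 h and 54 at 16 h, a log2 ratio of -1.58 (-2.06 to -1.14), with 62.8 CPM at 9 h, 20.8 CPM at 16 h and 4.6 CPM in mock. It was the one member past 2-fold among 26 NRF2 targets, whose median was 0.09 (0.19 after centring on GC). GCLC, the catalytic subunit for glutathione synthesis, had 267 and 419 counts, and AKR1C2, an aldo-keto reductase, had 634 and 936.

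Clock genes lay on the higher side. Of 8, PER1 and NR1D2 were 2-fold higher, none was lower, and the median was 0.46 (0.57 after centring on GC). PER1, a repressor of the clock, had 17 exon counts at 9 h and 108 at 16 h, and its introns 0 and 76. NR1D2, which encodes REV-ERB beta, had 276 and 576, a log2 ratio of 1.08 (0.87 to 1.29), and its introns 16 and 82. So exons and introns of both repressors were higher at 16 h, but the introns of both lay below the count minimum. Of the 4 clock genes at the minimum in introns none was past 2-fold. Their intron median was 0.05, beside 0.09 over all intron genes. NPAS2 had 67 and 116 counts and BHLHE40 243 and 317, while the activator ARNTL had 72 and 58 and NFIL3 93 and 81. Below the count minimum, the REV-ERB alpha gene NR1D1 had 10 and 27, the output regulator DBP 0 and 10 and TEF 6 and 23. In the randomer libraries PER1 went from 55.2 to 118 CPM and NR1D2 from 163 to 259 CPM. Mock had 19.4 CPM of PER1 and 224 CPM of NR1D2.

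Genes of FOXO and starvation responses split. Of 11, 5 were 2-fold higher and 1 lower, with a median of 0.46 (0.36 after centring on GC, 0.12 for the 2 members at a mean of 200 or more). KLHL24, a ubiquitin ligase adaptor, had 16 and 122 counts, YPEL5 54 and 160 (log2 ratio 1.58), SESN1, a stress-induced inhibitor of mTORC1, 68 and 189 (1.49), FOXO1 70 and 145 (1.06) and the cyclin CCNG2 41 and 83 (1.03). FOXO3 was lower, at 100 and 47 (-1.06). The insulin receptor substrates IRS1 and IRS2 lay below 0, at 184 and 146 and at 237 and 201 counts. Introns of SESN1 had 17 and 12 counts and those of FOXO1 89 and 81, so they did not move with the exons.

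Hypoxia and glucose genes had a median of 0.26 over 17 (0.15 after centring on GC), with SLC2A3 higher and the histone demethylase KDM3A lower (326 and 151 counts, log2 ratio -1.09). Introns of KDM3A went the other way, at 114 and 149 counts (log2 ratio 0.4). VEGFA, the angiogenic factor, had 54 and 98 counts, with 14 and 35 in introns, below the minimum. PDK1, an inhibitory kinase of pyruvate dehydrogenase, had 42 and 69, with 16 and 63 in introns, also below it. Of the 9 members at the minimum in introns, SLC2A3 and P4HA1 (57 and 116) were 2-fold higher, and the oxygen sensor EGLN1 (187 and 82) and the glucose transporter SLC2A1 (100 and 46) were 2-fold lower. None of 15 glycolysis enzymes was past 2-fold (median 0.05), and GAPDH had 3661 and 4541 counts. The 8 glucocorticoid receptor targets, with 1 higher and 1 lower, had a median of 0.52. They share PER1 and MT2A with lists above.

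**Figure D4:**
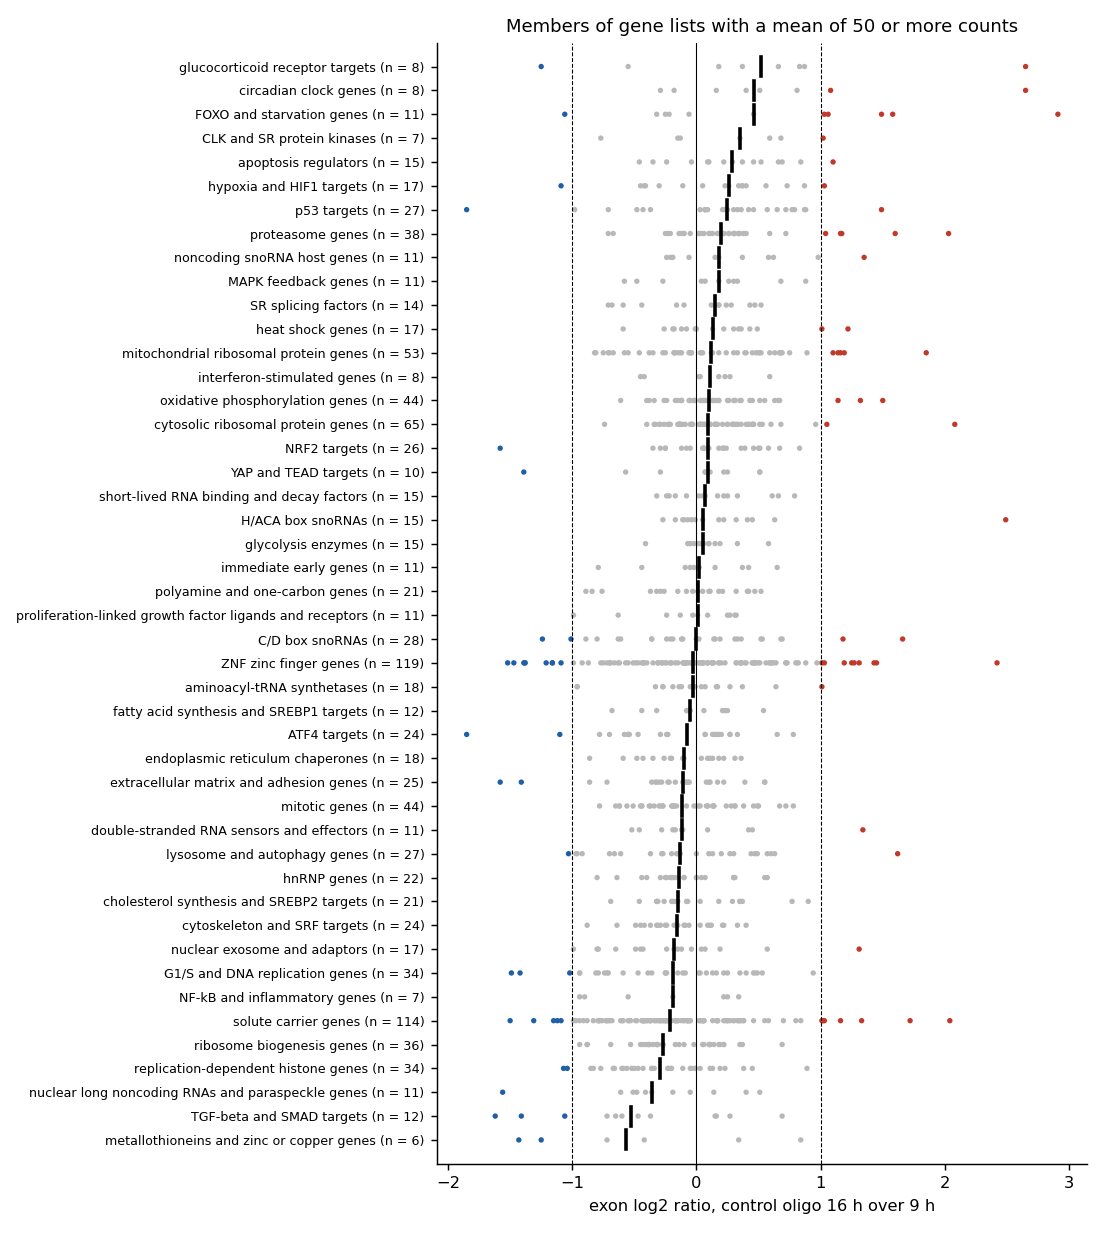
Exon log2 ratio of control oligo at 16 h over 9 h (x) for members of each gene list with a mean of 50 or more counts and at least 6 such members (y), ordered by their median (black bar). Red points are 2-fold higher and blue points 2-fold lower, and dashed lines mark 2-fold. Medians run from -0.57 for the metal list to 0.52 for glucocorticoid targets, and most lists straddle 0.

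Genes of DNA replication and growth lay slightly low. Of 34 genes of the G1/S step and DNA replication, 3 were 2-fold lower and none higher, with a median of -0.19 (-0.11 after centring on GC). CDC45, part of the replicative helicase, had 115 and 40 counts (log2 ratio -1.49). GINS2, another part of it, had 128 and 47 (-1.42), and POLD1, the catalytic subunit of DNA polymerase delta, 187 and 91 (-1.02). The introns of POLD1 were lower too, at 165 and 64, whereas those of GINS2 had 10 and 24. The E2F core stood in 9 of 30 promoter windows of this list, against 2.96% of the exon genes with a window. Among all exon genes 2-fold lower at 16 h it stood in 7 of 237 windows (2.95%).

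None of 44 mitotic genes was past 2-fold, and their median was -0.12. CCNA2, cyclin A2, had 322 and 547 counts, and the checkpoint kinases BUB1B and BUB1 had 223 and 128 and 123 and 200. Of 34 replication-dependent histone genes 26 were below 0 (median -0.29), with HIST1H2BM (90 and 42) and HIST1H4I (82 and 39) past 2-fold. Histone copies share sequence, so single histone values are uncertain. Of 36 ribosome biogenesis genes 23 were below 0 and none was past 2-fold (median -0.27, -0.18 after centring on GC), with the processing factors RRP8 at 264 and 136 counts and BOP1 at 129 and 69.

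Proteasome and mitochondrial genes had single members well above the rest. Of 38 proteasome genes, 5 were 2-fold higher and none lower, with a median of 0.20 (0.12 after centring on GC). The core subunit PSMA2 had 43 counts at 9 h and 175 at 16 h (log2 ratio 2.03), the assembly factor POMP 62 and 187 (1.60), and PSMC6, an ATPase of the cap, 107 and 237 (1.16). PSMA5 (1.17) and PSMD3 (1.04) were the others. Of 53 mitochondrial ribosomal protein genes 5 were higher and none lower (median 0.12). MRPL19 had 283 and 638 counts, a log2 ratio of 1.19 (0.99 to 1.40), with 13 and 63 in introns. The others were MRPL50 (1.85), MRPS17 (1.16), MRPS26 (1.14) and MRPL32 (1.10). Among 44 oxidative phosphorylation genes the complex II subunits SDHD (51 and 143) and SDHC (108 and 235) and the complex I subunit NDUFA2 (54 and 134) were higher, and the median was 0.10. Cytosolic ribosomal protein genes, many with processed copies, had a median of 0.09 over 65, with RPL14 and RPL41 higher.

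Stress responses gave no common direction. Of 24 ATF4 targets, 12 lay above 0 and 12 below (median -0.08). SESN2, an ATF4 and p53 target, was lower at 85 and 23 counts (log2 ratio -1.85), with 35 and 14 in introns. DDIT3, which encodes the stress factor CHOP, was lower at 72 and 33 (-1.10). The amino acid transporter heavy chain SLC3A2 had 1274 and 733 (-0.78), while DDIT4 was higher. None of 18 endoplasmic reticulum chaperones was past 2-fold (median -0.10), but after HSPA5 came HSP90B1, the chaperone GRP94, at 2690 and 1906 with introns at 324 and 176, and HYOU1 at 629 and 461. Of 17 heat shock genes the co-chaperones DNAJB4 (70 and 162) and AHSA1 (130 and 259) were higher. Of 27 p53 targets 21 lay above 0 (median 0.25), with SESN1 higher and SESN2 lower. Among 15 apoptosis regulators CFLAR, an inhibitor of caspase-8, was higher (126 and 268, 1.10), and the median was 0.29.

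The innate immune lists showed little at 16 h against 9 h. Of 34 interferon-stimulated genes 8 reached a mean of 50 counts, and 13 were at 0 in both libraries. None was past 2-fold, and the median was 0.11. OAS3, a sensor of double-stranded RNA, had 274 and 408 counts, a log2 ratio of 0.59 (0.37 to 0.82), and HERC5 202 and 146. Of 11 double-stranded RNA sensors and effectors, 1 was 2-fold higher and none lower, with a median of -0.12 (-0.26 after centring on GC). The antiviral adaptor MAVS had 871 and 599 counts, and STAU1, which binds double-stranded RNA, had 373 and 504.

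Early genes were likewise within 2-fold. None of 11 immediate early genes was past 2-fold (median 0.02, 0.15 after centring on GC), with the AP-1 subunit JUN at 209 and 119 counts and NR4A1 at 104 and 162. None of 7 NF-kB and inflammatory genes was either, with NFKBIA, the inhibitor of NF-kB, at 80 and 54. Of 28 C/D box snoRNAs, 2 were higher and 2 lower, and of 15 H/ACA box snoRNAs only SNORA71C was higher. SCARNA2, a guide RNA of Cajal bodies, had 141 and 64 counts, and RMRP, the RNA of RNase MRP, 3407 and 4763. Among 14 SR splicing factors, none past 2-fold, SRSF1 had 3575 and 2160 counts.

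Both larger families had members on either side. Of 119 ZNF zinc finger genes 9 were higher and 9 lower (median -0.03), with ZNF394 at 16 and 87 counts and 3 and 40 in introns. Of 114 solute carrier genes 7 were higher and 5 lower, and 74 lay below 0 (median -0.21). SLC25A37, a mitochondrial iron importer, had 27 and 111 counts, and SLC7A7, a subunit of an amino acid transporter, 60 and 121 with 25 and 74 in introns.

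Introns took 22.0% of all assigned counts at 9 h (exact Clopper-Pearson interval 21.9% to 22.0%) and 22.9% at 16 h (22.9% to 23.0%), a difference of 0.971 points. The mock library had 23.6%. In introns, 353 genes (7.85% of 4496) were 2-fold higher at 16 h and 273 (6.07%) 2-fold lower, with a median log2 ratio of 0.09. This balance depended on scaling by exon totals. With intron-table totals 293 genes (6.52%) were higher and 332 (7.38%) lower. The genes with the largest ratios were near the count minimum, and their exons mostly did not follow. MOB3B, a kinase regulator, had 8 intron counts at 9 h and 106 at 16 h (log2 ratio 3.66), with 87 and 75 in exons. RTN3, a reticulon of the endoplasmic reticulum, had 10 and 108 (3.39), with 842 and 770 in exons. The exceptions were C9orf89 and the adaptor NCK2, with 12 and 112 and 12 and 107 intron counts. Their exons had 3 and 46 counts, a log2 ratio of 3.75 (2.32 to 6.29), and 2 and 36, a log2 ratio of 3.89 (2.23 to 7.29).

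The next introns were those of the decapping factor DCP1B (3.13), SLC25A36 (2.86), the epoxide hydrolase EPHX2 (2.81), SFXN1, a mitochondrial serine transporter (2.74), the adenylyl cyclase ADCY6 (2.71) and FBXL16 (2.58). On the lower side NOLC1, a nucleolar phosphoprotein, had 102 intron counts at 9 h and 8 at 16 h (-3.57), with 366 and 357 in exons. SYCP2L had 96 and 18 (-2.37), and its 60 exon counts at 9 h stood against 0 at 16 h. The rest of the 10 lowest were ITGBL1 (-3.07), AKAP8 (-2.74), the decapping enhancer EDC3 (-2.73), the ribosomal RNA methyltransferase FTSJ3 (-2.68), NDUFB2 (-2.60), PPAT, the first enzyme of purine synthesis (-2.50), DDX51 (-2.45) and VWDE (-2.34). Most intron genes overlap another gene in the annotation, and the labels do not say whether strand was used in counting. Of 1064 without an overlap, 80 were 2-fold higher and 72 lower.

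The intron-to-exon ratio was 2-fold higher at 16 h for 397 genes (10.7% of 3697) and 2-fold lower for 286 (7.74%). With introns scaled by intron-table totals these were 325 (8.79%) and 338 (9.14%), so the excess of higher genes was lost. The 5 highest were DCP1B, MOB3B, APBA2, RTN3 and CLN6, and the 5 lowest SPTSSA, STAMBPL1, ARHGEF3, NOLC1 and AKAP8. In DCP1B, APBA2 and CLN6 exons were 2-fold lower while introns were higher. APBA2, an adaptor of the amyloid precursor protein, had 99 and 28 exon counts and 30 and 102 intron counts.

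Exons and introns agreed weakly across genes. Of the 3697 genes counted in both tables, 108 were 2-fold higher in exons and 274 in introns, and 13 were in both sets, which is 12% of the first and 4.74% of the second. The share of all these genes 2-fold higher in introns was 7.41%. On the lower side 118 and 209 genes shared 18 (15.3% and 8.61%), beside 5.65% of all genes lower in introns. Pearson's r was 0.16 and Spearman's rho 0.17 over the 3697 genes, and 0.25 and 0.29 over 456 genes with a mean of 200 or more in both tables. Exon and intron reads of a gene come from the same library. The shared higher genes were ACBD3, BRI3, CAPRIN2, DAP3, DEAF1, DTL, EHD2, NUP210, SLC2A3, TMEM135, UBA3, VPS37A and ZNF507. The shared lower genes were CNNM3, COL7A1, DDX11, DGCR8, GALNT14, KIF26A, KRT80, LTBP2, MED24, POLD1, SEMA4C, SPPL2A, STARD13, TBCEL, TRAF3, ZBTB40, ZFYVE27 and ZMYM6. DAP3, a mitochondrial ribosomal protein, and DTL, a substrate receptor that clears CDT1, are among the first. DGCR8, the partner of DROSHA in microRNA processing, and the helicase DDX11 are among the second.

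**Figure D5:**
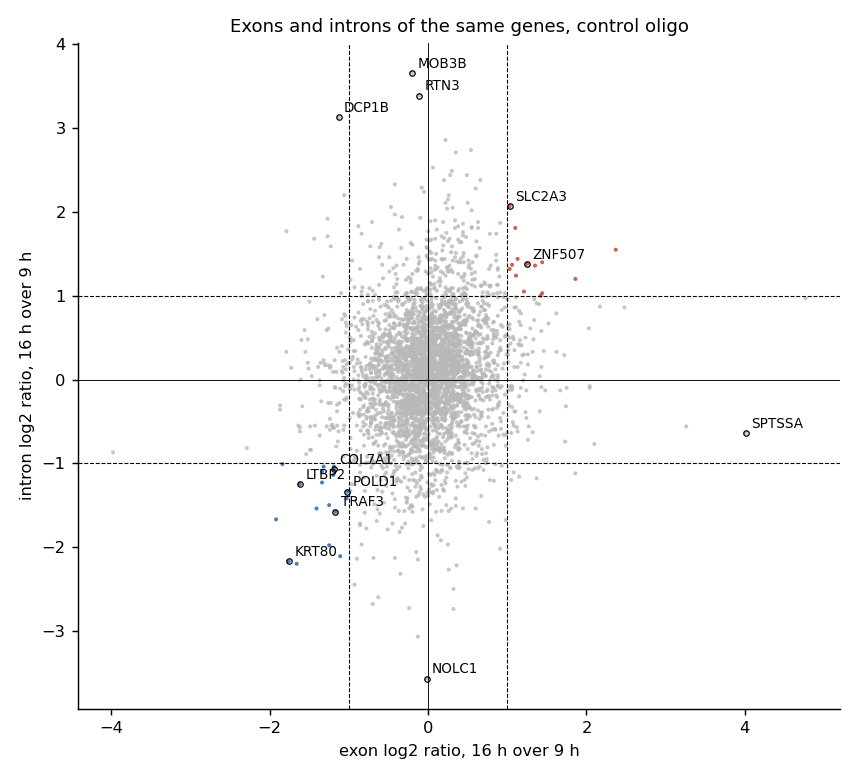
Exon log2 ratio (x) against intron log2 ratio (y), control oligo at 16 h over 9 h, for the 3697 genes counted in both tables at the minimum of 50. Red and blue points are 2-fold higher or 2-fold lower in both, dashed lines mark 2-fold, and open circles mark named genes. SLC2A3 and KRT80 lie at opposite corners, and NOLC1, RTN3 and MOB3B lie on the vertical axis.

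The randomer libraries share no library with the control oligo pair, so the 9 h to 16 h interval can be read in both. Over 5593 genes at a mean of 50 or more in both pairs, Pearson's r of the exon ratios was 0.08 and Spearman's rho 0.09. Among the 367 genes at 500 or more in both, both were 0.25. Of 182 genes 2-fold higher with control oligo and 170 with randomer, 10 were in both sets (5.49% and 5.88%). Of all these genes 3.04% were higher with randomer. In the opposite direction, 23 of the 182 were 2-fold lower with randomer, beside 7.37% of all these genes. The 10 were ANO6, C12orf47, DEPDC7, FAM177A1, LOC646719, PER1, PGAP1, RICTOR, TMEM43 and ZNF394. On the lower side 172 and 412 genes shared 22 (12.8% and 5.34%, beside 7.37%). In the opposite direction, 12 of the 172 were 2-fold higher with randomer, beside 3.04%. IL6R, MT1X, SKP2, the cell surface sialomucin PODXL and the splicing factors PTBP2 and PRPF31 are among those 22. MT1X had 100 CPM in the 9 h randomer library and 34.5 CPM in the 16 h one. Its levels with control oligo were 94 and 34.7 CPM. MT2A had a log2 ratio of -0.37 with randomer, beside a median of -0.19 over the 5593 genes. In introns, 309 and 504 genes were 2-fold higher and 55 were in both sets (17.8% and 10.9%, beside 12.2%). Of the 309, 10 were 2-fold lower with randomer, beside 2.06%. On the lower side 230 and 85 genes shared 4 (1.74% and 4.71%, beside 2.06%). Of the 230, 41 were 2-fold higher with randomer, beside 12.2%.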

How the data were processed

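Total RNA of A549 cells was cleared of ribosomal RNA, and Illumina sequencing of the fragmented and amplified cDNA followed, per the labels' protocols. The authors deposited raw counts in an exon table and an intron table, both keyed by symbol. Per the submitters' processing notes the tools were TopHat2 and HTSeq, on hg19, and no version is given. Whether strand was used in counting is not stated, so reads of overlapping or antisense genes cannot be separated.

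28 rows per table whose symbols had become calendar dates were dropped (0.153% to 0.289% of a library's counts). Both tables were scaled by the exon total of each library. Log2 ratios of 16 h over 9 h used 0.5 added to each count, genes with a mean of 50 or more over both libraries, and 2-fold as the threshold. Exact Clopper-Pearson intervals at 95% cover counting error only, and PCR reads without molecular identifiers are not independent molecules. The steps were tested on simulated counts that held counting error alone, so the test did not cover the wider spread between these libraries. A ratio with 3 or fewer counts on one side is given with its interval and is no bound.

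The tables were paired for 19204 symbols, 18447 with one shared symbol and 757 by way of synonyms in RefSeq. GENCODE v29 on GRCh38 gave GC content and overlaps. Its build differs from that of the counts, so no gene coordinates are given. Promoters came from RefSeq on GRCh38.p14, with a window for 5785 of the 7084 exon genes.

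Named genes were the 10 highest and lowest exon ratios at a mean of 50 and of 500, the 10 highest and lowest intron ratios, the 5 highest and lowest intron-to-exon differences, and members of 51 gene lists with the largest ratios or past 2-fold. Genes past 2-fold at a mean of 200, those shared between tables or oligos, and further list members were added after their values were seen. Some members of these sets are not reported here. Members, lists and tests were chosen with earlier results of these data known. Alternatives covered TMM (edgeR 4.0.16), DESeq2 1.42.0 size factors (both in R 4.3.3 and used for scaling only), totals without RN45S, intron-table totals for introns, the count filter, the pseudocount and GC content. Other steps used Python 3.11.15, pandas 2.3.3 and SciPy 1.17.1.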

Additional observations from a re-analysis of the deposited data

Results flagged for a closer look

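5 named genes were past 2-fold in opposite directions between 9 h and 16 h with control oligo and with randomer, each from 1 library per time. Over the 5593 genes at the minimum in both pairs, 23 of 182 higher with control oligo were 2-fold lower with randomer, beside 7.37% of all. Of 172 lower with control oligo, 12 were 2-fold higher with randomer, beside 3.04% of all. Past 2-fold in the same direction were 10 of the 182 and 22 of the 172. The difference was not tested. ANKRD1, a YAP target, had a log2 ratio of 16 h over 9 h of -1.39 with control oligo (78 and 29 counts) and 1.06 with randomer (348 and 597). DDIT3, which encodes CHOP, had -1.10 (72 and 33) and 1.24 (116 and 226). The aspartyl-tRNA synthetase gene DARS had 1.01 (51 and 102) and -2.45 (129 and 19). The exosome subunit EXOSC4 had 1.31 (32 and 79) and -1.38 (77 and 24). The nuclear pore gene NUP210 had 1.11 (104 and 222) and -1.81 (112 and 26), and it was also 2-fold higher in introns with control oligo.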

How the results depend on the processing

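With 1 library a side no value carries a replicate check, and the counting intervals are narrower than the spread between libraries, whose scaled MAD at 50 to 100 exon counts is 0.739 against 0.248 from counting alone. No paired analysis was possible because each group is 1 library and the labels carry no replicate numbers. Scaling by another exon factor mattered little: the median exon log2 ratio of all genes was -0.001 as reported, 0.008 with TMM, -0.004 with DESeq2 size factors and 0.006 without RN45S. Scaling introns by intron-table totals turned the balance, to 293 higher and 332 lower from 353 and 273 in introns, and to 325 and 338 from 397 and 286 in the intron-to-exon ratio.

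The counts of genes past 2-fold moved with the filter. At a mean of 10 or more, 1125 genes were higher and 988 lower in exons, 1496 and 1149 in introns, and 1586 and 1333 in the intron-to-exon ratio. At a mean of 200 or more these were 21 and 22, 13 and 3, and 12 and 4, so that in exons the excess of higher genes was lost. With no filter they were 2076 and 1738, 2875 and 2107, and 3305 and 2815. Without overlapping genes, introns gave 80 and 72 and the ratio 97 and 63, from 1064 and 911 genes. The 16 h minus 9 h intron share was 1.10 points without RN45S and 1.17 over genes in both tables. Centring on GC, chosen after seeing the data, gave 292 higher and 270 lower in exons.

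Of 51 list medians, 9 changed sign at a mean of 10 and 9 at a mean of 200. Those at 200 include ATF4 targets (0.13), endoplasmic reticulum chaperones (0.04), NF-kB genes (0.25), lysosome and autophagy genes (0.15) and noncoding snoRNA host genes (-0.20). At 10, the mitochondrial ribosomal protein median was -0.0025 and that of lysosome and autophagy genes 0.0008. GC centring changed the sign of 2 medians, MondoA targets (-0.04) and C/D box snoRNAs, the latter also under TMM and without RN45S, within 0.01 of 0.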

Other observations

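Several lists outside the groups above had members with sizeable ratios between 9 h and 16 h of control oligo, with 1 library a side and no test. Of 27 lysosome and autophagy genes, MAP1LC3B, which marks autophagosomes, had 36 exon counts at 9 h and 110 at 16 h (log2 ratio 1.62), while ATG7, the enzyme that activates the LC3 family, had 73 and 35 (-1.03) and BECN1 277 and 140 (-0.96). The median of that list was -0.13, near 0 after centring on GC and 0.15 for its members at a mean of 200 or more. Among 7 CLK and SR protein kinases DYRK1A had 68 and 137 counts (1.02), and the introns of SRPK1 had 93 and 212. DUSP5, a phosphatase that restrains ERK, had 46 and 84 exon counts and 57 and 124 intron counts, in a list of 11 MAPK feedback genes with none past 2-fold. IGFBP3, an IGF binding protein, had 470 and 234 (-0.99), and 179 and 90.1 CPM stood against 74.1 CPM in mock. Of 18 aminoacyl-tRNA synthetase genes DARS alone was past 2-fold, and HARS had 303 and 154 (-0.96). None of 21 cholesterol synthesis genes was past 2-fold (median -0.15, -0.05 after centring on GC). SNHG10, a snoRNA host gene, had 43 and 109 counts (1.35).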
